A study of Homo sapiens with 7 samples.

Results

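The keratin and keratin-associated genes were taken as every autosomal gene on the arrays whose name was KRT followed by digits and an optional letter, or began with KRTAP. The rule found 68 genes, measured by 82 spots, among the 23745 named autosomal genes tested. They comprised 25 type II keratins, 21 type I keratins, 20 keratin-associated proteins, KRT222 and the pseudogene KRT42P. They lay in 4 loci (hg19), chr12:52577453-53346389 with 26 genes, chr17:38816237-39788794 with 29, chr21:31743999-32410580 with 11 and chr11:71260239-71277316 with 2. KRT14 had no probe.

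Keratins are the intermediate filament proteins of epithelial cells, and each filament pairs a type I with a type II chain. Simple epithelia make KRT8, KRT18 and KRT19, the basal layer of stratified epithelia makes KRT5, and its upper layers make KRT1 and KRT10. Hair keratins and inner root sheath keratins are made in the hair follicle, where keratin-associated proteins cross-link the hair keratins. Genomic regions are copied at characteristic times in S phase, and regions of active chromatin tend to be copied early.

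The study profiled replication timing on 7 two-colour Agilent arrays, 3 of K562, a chronic myeloid leukaemia line, and 4 of U2OS, an osteosarcoma line. K562 was represented by 1 array with a new cell sorting method, 1 with the old one and 1 labelled 44k, whose sorting method the labels do not give. U2OS was represented by 2 arrays labelled manual and 2 labelled automated. All cells were grown under ATCC conditions, given 50 µM BrdU for 2 h and stained with propidium iodide, and 80000 cells were sorted into an early (S1) and a late (S2) fraction; BrdU-labelled DNA was then immunoprecipitated and amplified. Early DNA carried Cy3 and late DNA Cy5 on all 7 arrays, so no dye swap offsets a dye effect. Nothing in the labels says that arrays of one line came from separate cultures, so p-values measure the spread between these arrays, which may be technical. Each of the 6 slides held arrays of 1 line only, so slide and cell line cannot be told apart.

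Values are log2(early/late), centred on the median autosomal probe of each array. A positive value means earlier replication than that median, and a negative value later. The array labelled 44k had the smaller design and the lowest share of detected late signals. It carried 63 of the 68 genes, its late channel was well above background at 5.48% of the 73 member spots against 23.2% to 93.9% on the other arrays, and 6 of these spots had a ratio that the scanner software had set to 0. BMP1, the early control of the study, stood at -3.35 on that array and between 0.74 and 1.87 on the other 6. DPPA2, the late control, was negative on all 7, from -2.55 to -0.89. Results are given with and without the 44k array where its omission changed them.

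Dim signals limited the early loci in one direction. In K562 the late channel of 17 members was not well above background on any array. A positive value there is a lower bound where the early channel was detected, which it was on every K562 array for KRT76, KRT79 and KRTAP5-10, on some arrays for 13 others and on none for KRT42P. In U2OS the late channel of KRT77 and KRT80 was above background on no array. The early channel of KRTAP13-2, KRTAP22-2 and KRT42P was not well above background on any K562 array. On chromosome 21, the late channel of all 11 genes was well above background on at least 1 array of each line. In K562, the late channel was well above background on every array carrying the gene at 4 of them, and the early channel at 4. In U2OS these counts were 10 and 10. The part of this in the difference between the lines was not tested.

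The chromosome 12 and 17 loci replicated early and the chromosome 21 locus late, on every array of both lines. The mean over member genes was 1.16 ± 0.31 (SD, n = 7 arrays) on chromosome 12, 1.18 ± 0.23 on chromosome 17, 0.57 ± 0.30 on chromosome 11 and -1.82 ± 0.61 on chromosome 21. Over all 68 members the median gene mean was 1.23, against 0.69 over all genes tested. Of the members, 30 were positive on every array on which they had a probe, where 41.0% of all genes were. A further 8 were negative on every array, all of them on chromosome 21, where 15.1% of all genes were.

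**Figure D1:**
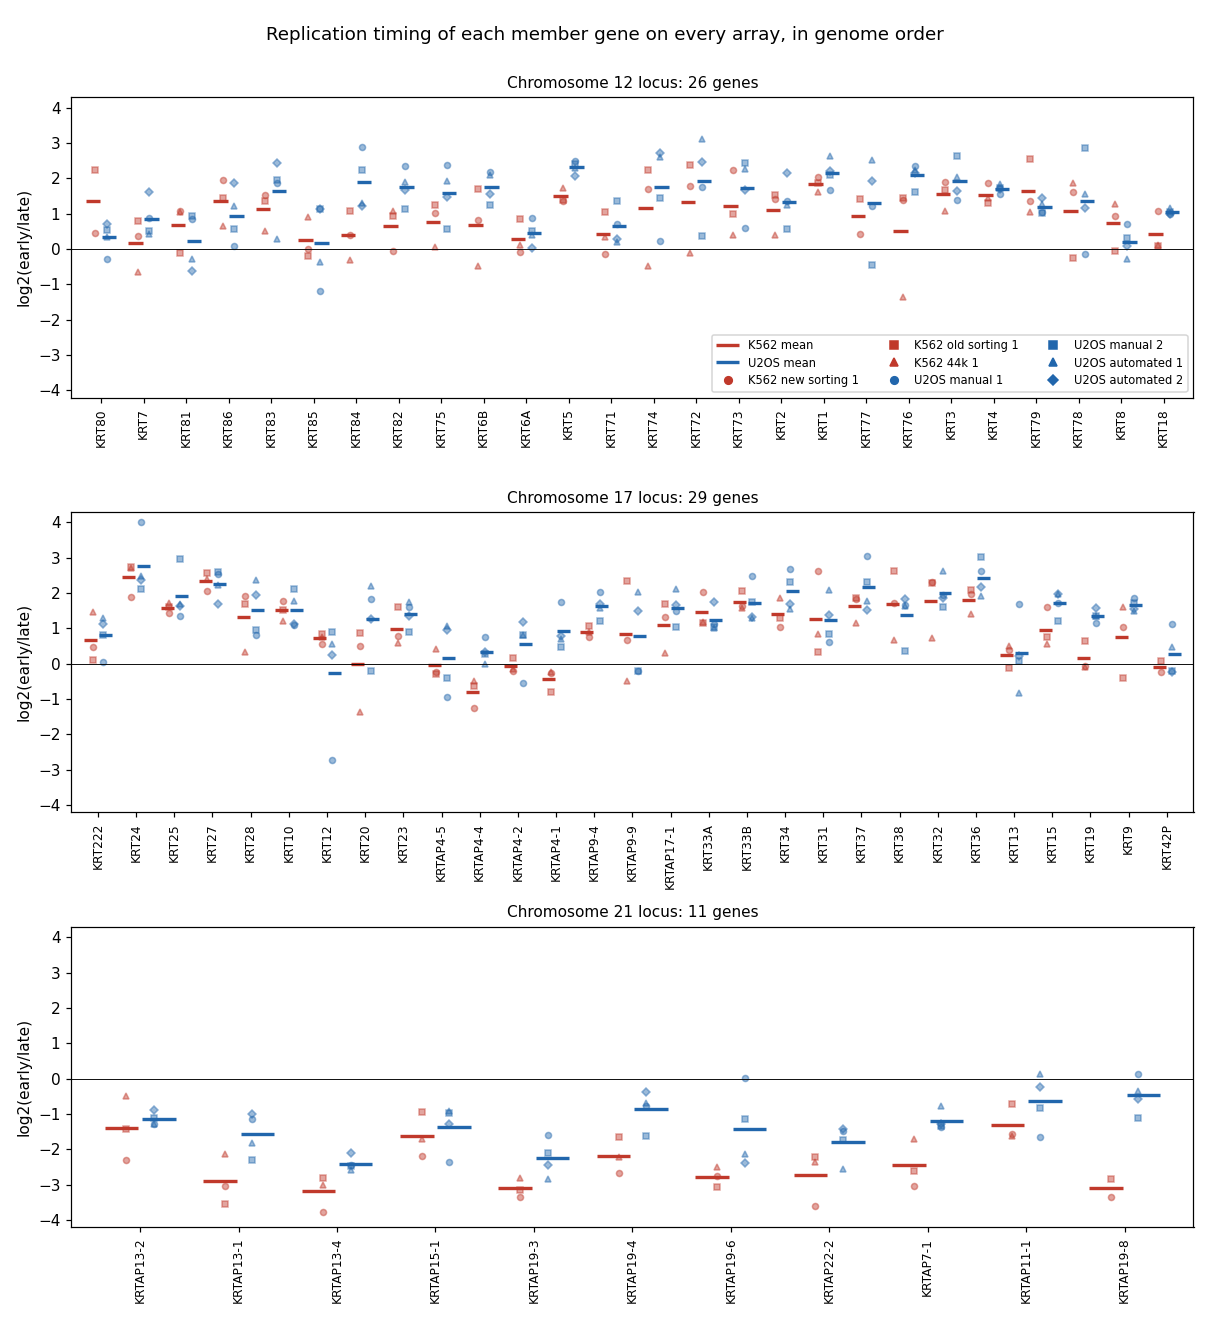
log2(early/late) of each member gene in genome order (vertical axis, 0 is the array median) on the chromosome 12, 17 and 21 loci. Points are single arrays, red for K562 and blue for U2OS with a symbol per array, and bars are the mean of each line; the chromosome 21 genes have negative means in both lines, from -0.93 to -2.75 over all arrays, while the other loci are mostly positive.

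Probes of a selection of the named genes are given with their hg19 positions. KRT24 was the highest gene of the chromosome 17 locus and KRTAP13-4 the lowest of the chromosome 21 locus. KRT19, KRTAP19-4 and KRTAP19-8 were called between the lines, and KRT5 was not. G and C are in capitals. GC content was alike across these probes, at 33.3% to 40.7%. Over all member probes its median was 38.3% on chromosome 12, 36.7% on chromosome 17 and 40.0% on chromosome 21, against 36.7% over all autosomal probes.
KRT5, chr12:52908603-52908656: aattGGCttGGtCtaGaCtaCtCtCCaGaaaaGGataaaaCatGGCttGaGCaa
KRT24, chr17:38856613-38856672: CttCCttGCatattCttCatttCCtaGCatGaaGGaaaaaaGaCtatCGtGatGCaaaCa
KRT19, chr17:39682526-39682585: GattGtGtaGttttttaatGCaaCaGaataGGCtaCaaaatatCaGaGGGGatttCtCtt
KRTAP13-4, chr21:31803046-31803105: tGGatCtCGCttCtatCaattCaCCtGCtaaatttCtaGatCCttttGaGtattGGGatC
KRTAP19-4, chr21:31869196-31869255: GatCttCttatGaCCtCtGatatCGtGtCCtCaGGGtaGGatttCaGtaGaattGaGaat
KRTAP19-8, chr21:32410521-32410580: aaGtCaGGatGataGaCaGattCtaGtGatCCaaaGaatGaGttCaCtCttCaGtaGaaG

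On chromosome 12, which holds the type II keratins and the type I gene KRT18, gene means ran from 0.21 at the hair keratin KRT85 to 2.02 at KRT1. KRT1 (chr12:53068954-53069012), the type II keratin of the upper epidermal layers, stood at 2.05, 1.86 and 1.61 on the new-sorting, old-sorting and 44k K562 arrays, and at 1.66, 2.10, 2.63 and 2.21 on the manual 1, manual 2, automated 1 and automated 2 U2OS arrays. It was early on all 7, at percentile 99.1 of all genes tested, and the lines overlapped. Its late channel was well above background on 1 of 3 K562 and 3 of 4 U2OS arrays, so that rank rests partly on dim late signals. KRT5, the type II keratin of basal epidermal cells, stood at 1.37, 1.39 and 1.73 on the 3 K562 arrays in the same order. In U2OS it stood at 2.49, 2.42, 2.29 and 2.07. Its late channel was well above background on 2 of 3 K562 and 2 of 4 U2OS arrays. The lines did not overlap at KRT5, but the difference of -0.82 (SE 0.28) missed the threshold (limma with Benjamini-Hochberg adjustment over all genes, adjusted p = 0.0888). It was -0.43 with normexp background correction of the raw signals and -0.24 with loess normalization after it.

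KRT8 and KRT18, the simple epithelial pair that lies at the high-coordinate end of this locus, were closer to the array median. KRT8 was 0.73 ± 0.69 (SD, n = 3) in K562 and 0.20 ± 0.42 (n = 4) in U2OS, and KRT18 was 0.43 ± 0.57 and 1.05 ± 0.07. Neither difference passed the test (limma adjusted p = 0.443 and 0.266). The probe at chr12:53343417-53343466 was named KRT18 on the larger design and KRT8 on the 44k array. Under the larger design's name the K562 means were 0.83 for KRT8 and 0.53 for KRT18. KRT85 was mixed in sign, at 0.00, -0.18 and 0.92 in K562 and -1.19, 1.14, -0.36 and 1.14 in U2OS. KRT80, the first gene of the locus and a keratin of stratified epithelia, stood at 0.47 and 2.23 on the 2 K562 arrays that carry it and at -0.27, 0.55, 0.35 and 0.71 in U2OS, and its late channel was above background on no array of either line, with the early channel above it on 1 K562 and 1 U2OS array.

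The chromosome 12 genes did not separate by keratin class beyond their range. The median gene mean was 1.35 over 12 stratified epithelial keratins, 1.24 over 7 hair keratins, 1.504 over 4 inner root sheath keratins and 0.57 over 3 simple epithelial keratins. The stratified epithelial genes alone ranged from 0.39 to 2.02.

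On chromosome 17, gene means ran from -0.14 at KRTAP4-4 to 2.62 at KRT24, a type I keratin. KRT24 stood at 1.90, 2.74 and 2.71 in K562 and 4.01, 2.13, 2.49 and 2.38 in U2OS. All 7 values were high, with their mean at percentile 99.99 of all genes tested, and the lines overlapped. Its late channel was well above background on 1 of 3 K562 and 2 of 4 U2OS arrays, so several of these ratios, and that rank, rest on a late signal not well above background. KRT10, the type I partner of KRT1, was 1.51 ± 0.28 (SD, n = 3) in K562 and 1.53 ± 0.50 (n = 4) in U2OS. The difference of -0.01 (SE 0.35, limma adjusted p = 0.986) has no settled sign.

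The hair keratins of chromosome 17 were early throughout. All 8 were positive on every array, with gene means from 1.25 to 2.17 and a median of 1.76. The 3 inner root sheath keratins (KRT25, KRT27 and KRT28) were also positive on every array, with a median of 1.77. The 7 keratin-associated genes, which lie between KRT23 and KRT33A, had a lower median of 0.35 but were not alike. KRTAP9-4 and KRTAP17-1 stood at 1.32 and 1.38, within the range of the hair keratins and positive on every array. KRTAP9-9 stood at 0.81, and the KRTAP4 genes were lower. At the ends of the locus, KRT222 was 0.76 ± 0.56 (SD, n = 7) and KRT42P 0.16 ± 0.54 (n = 6). In the 100-kb bin at the low-coordinate edge of the locus, U2OS stood at 1.75 and K562 at 1.72. In the bin 50 kb past the centre, with 9 probes on the larger design, they stood at 0.96 and 0.17. At 250 kb past it they stood at 1.66 and 1.57.

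The bin 50 kb past the centre held the KRTAP4 genes, which encode ultrahigh-sulfur proteins of hair. KRTAP4-4, KRTAP4-5, KRTAP4-2 and KRTAP4-1 had means from -0.14 to 0.35, and none had the same sign on all 7 arrays. KRTAP4-1 (chr17:39340505-39340564) stood at -0.25, -0.80 and -0.22 in K562 and 1.74, 0.47, 0.70 and 0.79 in U2OS. All 3 K562 arrays were negative and all 4 U2OS arrays positive. The KRTAP4 genes are closely similar copies, and hybridisation across copies was not tested.

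On chromosome 21, all 11 members encode keratin-associated proteins, and the gene means ran from -2.75 at KRTAP13-4 to -0.93 at KRTAP11-1. KRTAP13-4 (chr21:31803046-31803105) stood at -3.76, -2.82 and -3.01 in K562 and -2.45, -2.49, -2.59 and -2.10 in U2OS. It was late on all 7 arrays, at percentile 0.35 of all genes tested, and K562 was lower without overlap. The difference of -0.79 (SE 0.33) missed the threshold (limma adjusted p = 0.151). It was -0.50 without the new-sorting array, -0.45 with normexp and -0.22 with loess after it. KRTAP11-1 stood at -1.56, -0.73 and -1.62 in K562 and -1.67, -0.82, 0.14 and -0.24 in U2OS. It was the least late member, with 1 positive value on an automated array.

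The non-member probes inside the chromosome 21 locus were late as well, at -2.51 ± 0.81 (SD, n = 3) in K562 and -1.91 ± 0.12 (n = 4) in U2OS. The member genes at the locus edges were KRTAP13-2 and KRTAP19-8. KRTAP13-2 stood at -2.30, -1.43 and -0.49 in K562 and -1.28, -1.13, -1.30 and -0.88 in U2OS, with the 44k ratio set to 0 by the software before centring. The lines overlapped there only through that 44k value. The difference was -0.26, -0.72 without the 44k array and 0.19 without the new-sorting array, and none of these passed (limma adjusted p = 0.741, 0.258 and 0.786).

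Promoters were matched by symbol in RefSeq (GRCh38.p14, 250 bases before to 50 after the start) for 48 of the 68 members, under 80%, so a comparison of promoter composition over all members is void. On chromosome 21, 10 of 11 genes matched. Their GC content had a median of 38.0% and a range of 31.3% to 44.3%, against a median of 58.3% over 26246 autosomal promoters. The letters TATAAA, on the gene's strand or as their reverse complement, occurred in 6 of these 10 promoters and in 12.04% of all promoters. They also occurred in 17 of the 23 matched promoters of the early chromosome 17 locus and in 6 of the 14 of the early chromosome 12 locus. Only 79.3% and 53.8% of the genes of these loci matched, both under 80%, so these counts allow no comparison. The promoters of the latest gene and of the gene that differed most between the lines are shown, gene strand, with TATAAA in capitals; a match is a description only.
KRTAP13-4, chr21:30429970-30430269, plus strand: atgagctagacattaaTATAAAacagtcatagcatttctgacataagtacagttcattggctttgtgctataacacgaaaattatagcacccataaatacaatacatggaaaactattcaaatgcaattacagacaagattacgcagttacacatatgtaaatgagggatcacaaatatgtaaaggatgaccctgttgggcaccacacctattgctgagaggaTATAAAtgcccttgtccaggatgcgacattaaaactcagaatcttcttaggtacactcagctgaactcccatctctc
KRTAP19-8, chr21:31038427-31038726, minus strand: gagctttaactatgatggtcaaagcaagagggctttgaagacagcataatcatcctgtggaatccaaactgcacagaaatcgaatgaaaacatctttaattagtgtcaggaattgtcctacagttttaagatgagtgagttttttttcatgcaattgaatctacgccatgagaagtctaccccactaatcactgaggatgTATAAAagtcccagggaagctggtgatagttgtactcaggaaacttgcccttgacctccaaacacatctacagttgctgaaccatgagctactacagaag

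The 2 chromosome 11 members, chosen for description after their values were seen, differed from each other. KRTAP5-9 had a mean of -0.19 ± 0.45 (SD, n = 7) and KRTAP5-10 of 1.51 ± 0.71 (n = 6). Each rests on 1 probe.

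Each locus was then compared with the non-member probes within 1 Mb on either side. Against the mean of both flanks, the chromosome 21 genes replicated later and the chromosome 17 genes earlier, on all 7 arrays. On chromosome 21 the difference was -2.15, -1.42 and -1.95 on the new-sorting, old-sorting and 44k K562 arrays. In U2OS it was -0.62, -0.95, -0.69 and -0.46. All 7 were negative, with a mean of -1.18 ± 0.67 (SD, n = 7; exact two-sided sign-flip permutation p = 0.0156, adjusted over 4 loci p = 0.0313). On chromosome 17 the mean was 0.32 ± 0.22 (n = 7, positive on all 7, from 0.04 to 0.71; exact p = 0.0156, adjusted p = 0.0313), and 0.17 with normexp. Single flanks did not all give the same sign. Against the left flank alone, the chromosome 21 genes stood at 0.11, -0.15, 0.12 and 0.36 on the U2OS arrays, and the chromosome 17 genes at -0.07 on the new-sorting K562 array. The contrasts were not particular to the members. Over the 7 arrays, non-member probes inside the chromosome 17 locus averaged 1.18, as the members did. Those inside the chromosome 21 locus averaged -2.17, against -1.82 for the members.

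The other loci did not stand apart from the mean of both flanks. On chromosome 11 the flanks were unlike, at -0.04 on the left and 1.21 on the right over the 7 arrays, and the member level of 0.57 lay between them. The difference from both flanks was 0.03 ± 0.24 (SD, n = 7) on chromosome 12 and 0.03 ± 0.47 on chromosome 11, each with 3 positive and 4 negative arrays (exact sign-flip adjusted p = 0.891 for each). The smallest p that 7 arrays allow is 0.0156. Without any 1 array, the chromosome 21 difference lay between -1.30 and -1.02 and the chromosome 17 difference between 0.26 and 0.37, and neither could pass after adjustment (exact adjusted p = 0.0625).

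**Figure D2:**
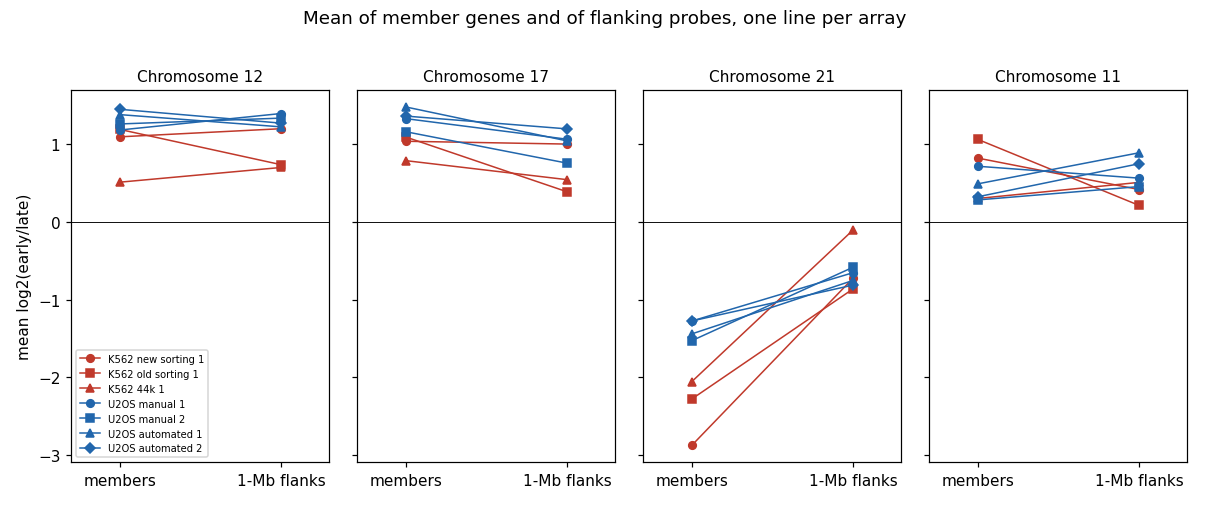
Mean log2(early/late) of the member genes of each locus and of the non-member probes within 1 Mb (vertical axis), joined by 1 line per array; K562 in red, U2OS in blue. The chromosome 21 lines all rise from members to flanks, and the chromosome 17 lines all fall.

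The size of the chromosome 21 contrast depended on the flank width. It was -0.48 with flanks of 0.5 Mb and -1.85 with flanks of 2 Mb, and in neither case did it pass after adjustment (exact sign-flip adjusted p = 0.0625 for each). The adjusted p of a locus also depends on the p of the other loci, and the chromosome 17 contrast lost its call at the same widths. The lost call is therefore no measure of the chromosome 21 contrast alone. Late values ran past the outermost members on both sides. In 100-kb bins, the U2OS mean was negative from -1150 to 650 kb from the locus centre, and the K562 mean from -750 to 850 kb. On the new-sorting, old-sorting and 44k K562 arrays the stretch ran from -750, -850 and -650 kb to 850, 1450 and 750 kb. The old-sorting array stayed negative to the last bin of the profile. On the U2OS arrays it began at -1150 kb and ended at 550 or 650 kb.

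The boundaries of that late stretch lay at different places in the 2 lines. At -950 kb, within GRIK1, a glutamate receptor subunit gene, the K562 mean was 1.33 and the U2OS mean -1.69. At 750 kb, within TIAM1, a guanine nucleotide exchange factor gene, the K562 mean was -1.03 and the U2OS mean 0.51. The left flank as a whole was -0.17 ± 0.19 (SD, n = 3) in K562 and -1.49 ± 0.13 (n = 4) in U2OS, and the right flank -0.87 ± 0.61 and -0.06 ± 0.09. The left minus right difference was positive on all 3 K562 arrays (0.64, 1.23 and 0.22) and negative on all 4 U2OS arrays (-1.33, -1.44, -1.46 and -1.48). This pattern was seen in the values and was not tested.

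**Figure D3:**
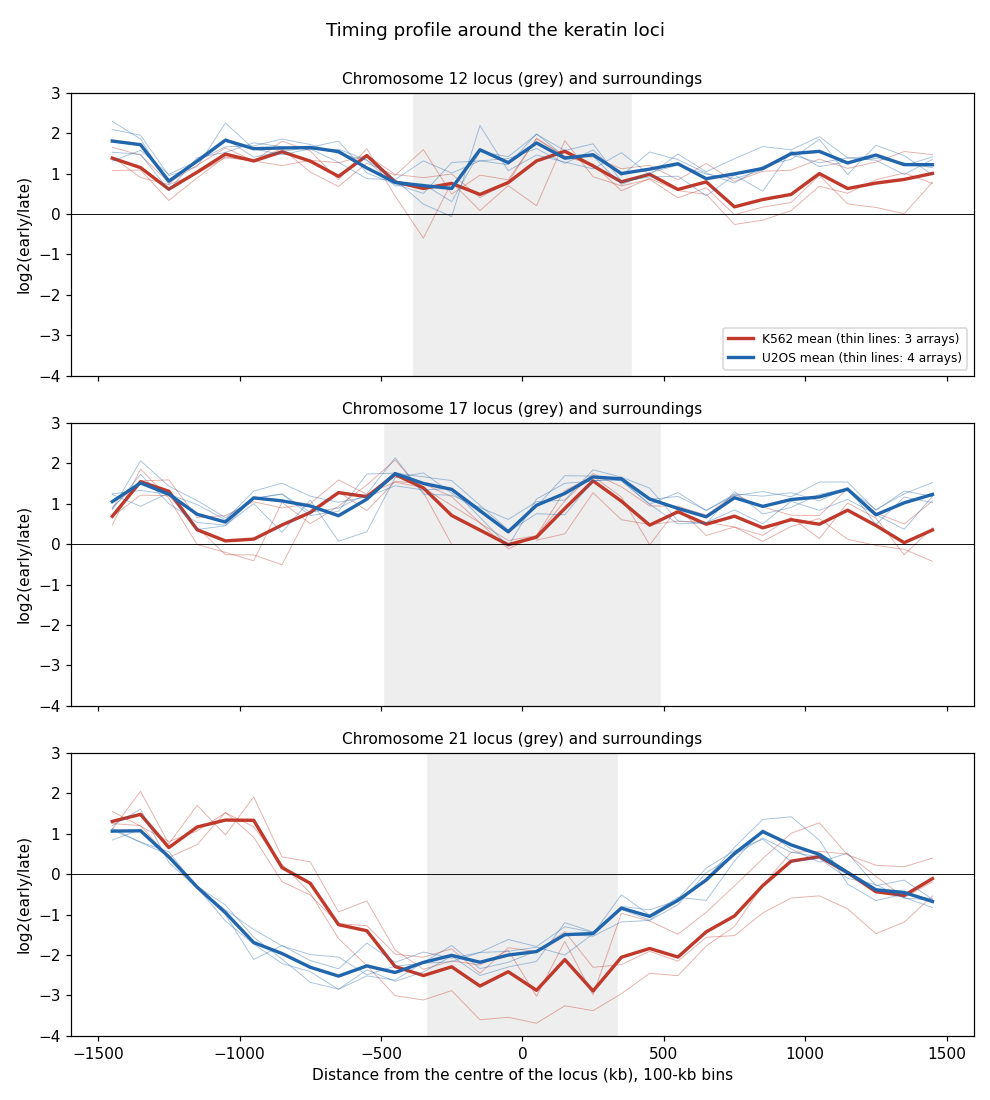
log2(early/late) in 100-kb bins (vertical axis) against distance from the centre of each locus in kb, with thin lines for single arrays and thick lines for the mean of K562 (red) and U2OS (blue); grey marks the span of the members, and the chromosome 17 lines bridge 1 bin without probes. Around the chromosome 21 members the valley of the U2OS mean lies farther left (-1150 to 650 kb) than that of the K562 mean (-750 to 850 kb).

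The comparison of the 2 lines asked whether the members replicate at different times in K562 and U2OS. The chromosome 21 locus was later in K562, with means over its genes of -2.88, -2.28 and -2.06 on the 3 K562 arrays and -1.27, -1.53, -1.44 and -1.27 on the 4 U2OS arrays. The lines did not overlap, and the difference of -1.03 had the smallest p that 3 against 4 arrays allow (exact two-sided permutation p = 0.0571, adjusted over 4 loci p = 0.114), so this design cannot reach 0.05. Chromosome 17 also did not overlap, at 1.04, 1.097 and 0.79 in K562 and 1.33, 1.16, 1.48 and 1.37 in U2OS, a difference of -0.36 (exact p = 0.0571, adjusted p = 0.114). On chromosome 12 the lines overlapped (difference -0.39, exact p = 0.114, adjusted p = 0.152), and the 44k value of 0.51 was the lowest of the 7; without that array the difference was -0.18. On chromosome 11 the difference was 0.28 (exact p = 0.286), 0.11 without the old-sorting array and 0.49 without the 44k array, on which KRTAP5-9 alone gives the level. The 1-Mb flanks of chromosome 17 were also lower in K562, at 0.65 against 1.02 in U2OS. Those of chromosome 12 stood at 0.88 and 1.31. Relative to the flanks, the lines differed by 0.01 on chromosome 17 and 0.04 on chromosome 12 (exact permutation p = 0.971 and 0.857). They differed by -1.16 on chromosome 21 (exact p = 0.0571, adjusted p = 0.229) and 0.56 on chromosome 11 (exact p = 0.171).

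Gene by gene, 5 of the 68 members were later in K562 and 0 were earlier (limma, adjusted p under 0.05), while 13.5% of all genes tested were called, 7.32% later and 6.14% earlier in K562. The members' share of later calls was near the background. Each of the 5 called genes rests on 1 probe, as do 56 of the 68 members on the larger design. In the fit limited to genes with at least 2 probes, 12 members were tested and KRTAP7-1 alone was called. The lines did not overlap, with K562 later, at 13 of the 68 members and at 16.1% of all genes. The difference was negative at 53 of 68 members and at 58.8% of all genes tested, with a median of -0.39 over the members and -0.16 over all genes. All 11 chromosome 21 genes had a negative difference, with a median of -0.93.

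**Figure D4:**
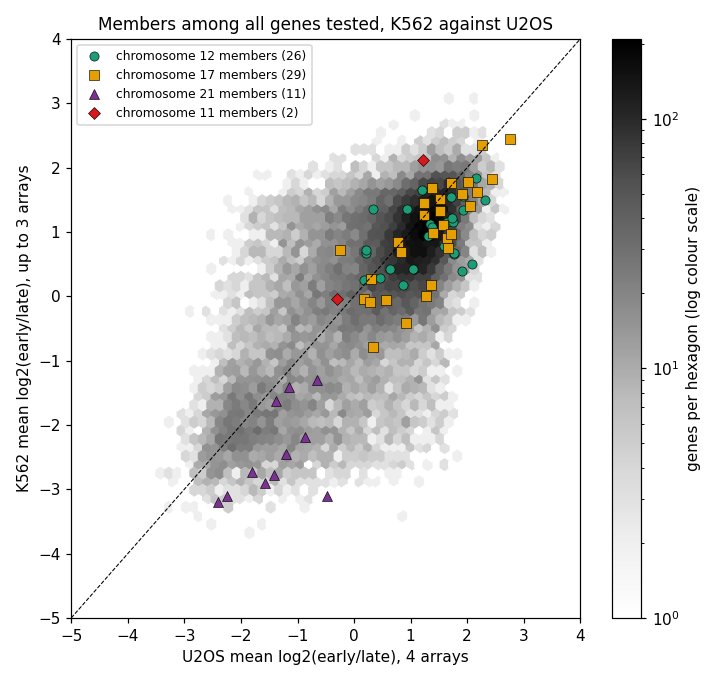
Mean log2(early/late) in K562 (vertical axis) against U2OS (horizontal axis) for all genes tested (grey hexagons, log colour scale) with the members in colour by locus. All 11 chromosome 21 members lie below the dashed line of equal values, and KRTAP19-8 lies farthest from it (-3.11 in K562, -0.48 in U2OS).

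KRTAP19-8, the last member of the chromosome 21 locus, had the largest difference of the 68. It stood at -3.36 with the new and -2.85 with the old sorting of K562, and at 0.13, -1.11, -0.35 and -0.58 in U2OS. The 44k array has no probe for it, so the fit used 6 arrays. The lines were far apart, by -2.63 (SE 0.42, limma adjusted p = 0.00401), with K562 lower on each array. It was called with each array left out in turn (limma adjusted p from 0.00530 to 0.0369). In the 100-kb bin that holds it, at 350 kb from the centre, the K562 mean was -2.05 and the U2OS mean -0.84, with the probe of KRTAP19-8 included. The new-sorting, old-sorting and 44k K562 arrays stood at -2.96, -2.24 and -0.97 in that bin.

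KRTAP19-4, a member of the same glycine- and tyrosine-rich family nearer the left end, stood at -2.66, -1.67 and -2.23 in K562 and -0.79, -1.64, -0.70 and -0.37 in U2OS. The lowest U2OS value was just above the highest K562 value. The difference of -1.31 (SE 0.39) was at the threshold (limma adjusted p = 0.0499). It passed with normexp (limma adjusted p = 0.00450). It did not pass with loess after normexp, without dim probes or with mean centring (limma adjusted p = 0.0521, 0.0998 and 0.0619). Of the 7 fits with 1 array left out, 5 lost the call (limma adjusted p from 0.0223 to 0.144 over the 7). KRTAP19-3 and KRTAP19-6, of the same family and chosen after their values were seen, had differences of -0.86 and -1.36 that did not pass.

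KRT19, the smallest type I keratin and a marker of simple epithelia, was the called keratin. It stood at -0.05, 0.65 and -0.08 in K562 and 1.15, 1.36, 1.35 and 1.57 in U2OS. K562 lay near its array median and U2OS well above it, without overlap, by -1.18 (SE 0.31, limma adjusted p = 0.0304). Its late channel was well above background on 1 of 3 K562 and 2 of 4 U2OS arrays. The difference was -0.70 with normexp, -0.60 with loess after it and -1.10 without dim probes, and none of these passed (limma adjusted p = 0.243, 0.310 and 0.0679). KRTAP4-1 differed by -1.35 (SE 0.37, limma adjusted p = 0.0375), with the late channel detected on the same numbers of arrays. With loess after normexp the difference was -0.65 and did not pass (limma adjusted p = 0.118).

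KRTAP4-4 stood at -1.25, -0.62 and -0.49 in K562 and 0.75, 0.28, -0.01 and 0.35 in U2OS. The lines did not overlap, and K562 was lower by -1.13 (SE 0.32, limma adjusted p = 0.0457). Its 44k value was a ratio set to 0 before centring, and without such ratios the adjusted p was 0.0566. With loess after normexp it was -0.65 (limma adjusted p = 0.119). The calls other than KRTAP19-8 also changed with the arrays included. The number of members called was 1 without the new-sorting array, 3 without the old-sorting array and 3 without the 44k array. It was 2 without manual 1, 4 without manual 2 and 1 without either automated array. Without the 44k array the called members were KRTAP13-1, KRTAP7-1 and KRTAP19-8, of which only KRTAP19-8 was called on all arrays.

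The second comparison asked whether manual and automated handling gave different values in U2OS. Both manual arrays shared a slide that held no automated array, so slide and handling cannot be told apart. None of the 68 members and none of the 23745 genes was called (limma, 0 and 0 genes, smallest adjusted p = 0.145), while 15 members and 19.5% of all genes had an unadjusted p under 0.05. The automated minus manual difference was positive at 42 of 68 members and at 10286 of the 23745 genes, with a median of 0.16 against -0.10 over all genes. With normexp background correction 35 members were called, 30 of them earlier on the automated arrays, where 35.7% of all genes were called in either direction. In that setting the difference was negative at 16 of the 68 members and at 39.3% of all genes. The late channel was well above background at 41.5% and 23.2% of member spots on the manual arrays and at 93.9% on each automated array; the part of this in the result was not tested.

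The other intermediate filament genes had a median gene mean of 0.82, against 0.69 over all genes tested. Of 15 listed, all had a probe, and 4 were called between the lines (limma), where 13.5% of all genes were. LMNB1, a nuclear lamin, was earlier in K562 by 1.13 (adjusted p = 0.0219). The neurofilament genes NEFL and NEFM and the synemin gene SYNM were later in K562, by -2.68, -1.79 and -1.77 (limma adjusted p = 0.00202, 0.00624 and 0.0129). NEFL stood at -2.74 ± 0.78 (SD, n = 3) in K562 and -0.06 ± 0.25 (n = 4) in U2OS. VIM, the vimentin gene, was early in both lines, at 1.33 ± 0.69 and 1.61 ± 0.45 by mean and SD.

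The cornified envelope and desmosome genes, which act with keratins in the epidermis, stood nearer the array median. Of 28 listed, 23 had a probe, with a median gene mean of 0.14. The epidermal differentiation genes FLG, FLG2 and CRNN were later in K562, by -1.71, -2.42 and -1.92 (limma adjusted p = 0.00776, 0.00346 and 0.0145), and 0 genes of the list were earlier. The 3 calls among 23 genes are near the 13.5% of all genes called. FLG, the filaggrin gene, stood at -0.77 ± 0.27 (SD, n = 3) in K562 and 0.93 ± 0.43 (n = 4) in U2OS, with no overlap.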

How the data were processed

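Agilent Feature Extraction (11.5.1.1 per the file headers, 9.1 per the submitters' processing notes) made the deposited log10 ratio of late (Cy5) over early (Cy3) from signals it had background-corrected and dye-normalized, with hg19 coordinates. The authors deposited the spot intensity values and other quality flags of the same scans, which served the alternatives and filters. Here the ratio was turned to log2(early/late). Control spots, non-uniformity outliers and manual flags were dropped, repeated probes averaged, each array centred on its median autosomal probe, and probes averaged per gene and chromosome. Where a channel was too dim, the software had put a floor in place of the signal or set the ratio to 0.

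Lines and handling groups were compared with limma 3.58.1 in R 4.3.3 (Benjamini-Hochberg over 23745 genes, adjusted p under 0.05), tested on simulated data. Genes without a probe on the 44k array were fitted on 6 arrays. Loci (members under 1 Mb apart) were compared with their flanks by exact sign flips over arrays, and between lines by exact permutation.

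Members, gene lists and tests were chosen with earlier results of these data known. Named genes were KRT1, KRT5, KRT8, KRT10, KRT14, KRT18 and KRT19, the first, last, highest and lowest member of each locus of 3 or more, and up to 5 called members per direction without overlap. Deviations of same-numbered U2OS arrays correlated at 0.01, which cannot decide whether the numbers pair them. The labels name no pairing, and the main test used none. Alternatives were background correction, loess, dim, saturated, set-to-0 and flagged spots, scale, centring, probe number, flank width and each array left out. The number of arrays limits the precision.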

Additional observations from a re-analysis of the deposited data

Results flagged for a closer look

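The flanks of the chromosome 21 locus differed in opposite directions in the 2 lines. The left minus right flank difference averaged 0.70 over the K562 arrays, each of them positive, and -1.43 over the U2OS arrays, each of them negative. The difference between the lines was not tested. Slide and cell line cannot be told apart here. Of 26 values of members and loci, 0 had a U2OS array far from the other 3 by Dixon's test.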

How the results depend on the processing

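Genes called between the lines (3194) were 2221 with normexp, 2096 with loess after normexp, and 2069 to 3134 with 1 array left out; 45.6% were earlier in K562, against 34.8% with normexp, 50.6% with mean centring and 53.6% without dim probes, so the balance of calls turned in the last 2 settings. Members called (5) were 4 with normexp, 1 with loess after normexp, 3 without dim probes, 3 with mean centring, 1 among the 12 genes with at least 2 probes, and 1 to 4 with 1 array left out. With normexp, 8484 genes and 35 members were called between handling groups. The replicate block called 0 genes and 0 members, and left-out arrays 0 to 0. The chromosome 17 locus minus flanks lost its call without dim probes (0.28), without ratios set to 0 (0.29, chosen after seeing the data), with 0.5 Mb (0.32) and 2 Mb flanks (0.25), and with any array left out (0.26 to 0.37). Chromosome 21 did so in the same settings (-1.23, -1.20, -0.48 and -1.85, and -1.30 to -1.02), keeping its sign. The adjusted p of each of these loci depends on the p of the other. Chromosome 11 turned to -0.12 with normexp and -0.31 with 2 Mb flanks, and ran from -0.11 to 0.10 with arrays left out, and chromosome 12 from -0.041 to 0.070. Uncalled gene differences changed sign at KRT85 (normexp -0.20), KRT42P (normexp 0.35), KRT80 (loess after normexp -0.058), KRT222 (same MAD 0.0094) and KRT10 (0.18 without dim probes, 0.057 same MAD, 0.035 mean centring). With arrays left out, KRT10 ran from -0.16 to 0.18, KRT222 from -0.53 to 0.14, KRT24 from -0.51 to 0.11, KRT85 from -0.40 to 0.38 and KRTAP13-2 from -0.72 to 0.19. A slide block was not run because its correlation could not be estimated. The cause was not tested.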
